A study of Rattus norvegicus with 23 samples.

Results

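The genes described here are the core antioxidant response genes of the transcription factor NRF2, followed through the hearts and kidneys of Sprague-Dawley rats after renal surgery. They were chosen by name as 10 genes (Hmox1, Nqo1, Slc7a11, Gclc, Gclm, Srxn1, Txnrd1, Gsr, Nfe2l2 and Keap1), of 32552 genes counted. For 9 of them the authors' tables pair the symbol with a gene identifier. Srxn1 was not analysed here. All rats were 13 weeks old, and organs were taken 4 weeks after surgery. In the AVF+NX group, 5 of 6 parts of the kidney tissue had been removed and a fistula had been made that joins the side of the carotid artery to the jugular vein, as for dialysis access. The NX group had the same nephrectomy without the fistula, and the Sham group had sham surgery. Each organ gave 4 AVF+NX and 4 NX libraries, and Sham surgery gave 3 heart and 4 kidney libraries. Samples are labelled as biological replicates, and nothing in the labels ties a heart to a kidney of the same rat. No group had a fistula without nephrectomy, so the AVF+NX group against NX is the comparison that bears on the fistula.

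NRF2, encoded by Nfe2l2, is a transcription factor that binds antioxidant response elements in promoters and enhancers. KEAP1 holds it in the cytoplasm and hands it to the proteasome, and oxidants or electrophiles that modify KEAP1 let NRF2 accumulate, so much of its control lies at the protein level and is not seen in mRNA. Its targets make glutathione (Gclc, Gclm and the cystine importer Slc7a11), keep glutathione and thioredoxin reduced (Gsr, Txnrd1), reduce quinones (Nqo1) and degrade haem (Hmox1). The tubules of the kidney are rich in glutathione enzymes, and Hmox1 and Slc7a11 are also known to be induced by other factors, among them BACH1 release and ATF4, and to be expressed by activated macrophages.

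Promoter windows are shown because NRF2 acts through elements of the kind searched for here. RefSeq promoter windows, from 250 bases before to 50 after a start on GRCr8, were found for 8 of the 10 genes, as 9 windows because Txnrd1 has a pair of starts. The core antioxidant response element was searched as TGACNNNGC on both strands. It lay in 3 of the 9 windows (Gclm, 1 of the Txnrd1 starts and Nfe2l2), and in 12.1% of all 33469 windows of the same length. The AP-1 motif TGACTCA, which can lie within a longer element, was in the Srxn1 window and in 4.63% of all windows. The amino acid response motif TGATGNAA was in none of the 9 and in 3.98% of all. Windows are printed 5′ to 3′ for the 2 genes that were higher in all AVF+NX than in all Sham kidneys and have a window, Slc7a11 (chr2:136668215-136668514, minus strand) and Nqo1 (chr19:52220218-52220517, minus strand), for Nfe2l2 (chr3:81028950-81029249, minus strand), which rose in the heart, and for Gclm (chr2:213031885-213032184, plus strand), which holds the element and was called in no surgery comparison. Capitals mark a match to TGACNNNGC on either strand, at -172 from the start in Gclm and at 39 in Nfe2l2.
Slc7a11: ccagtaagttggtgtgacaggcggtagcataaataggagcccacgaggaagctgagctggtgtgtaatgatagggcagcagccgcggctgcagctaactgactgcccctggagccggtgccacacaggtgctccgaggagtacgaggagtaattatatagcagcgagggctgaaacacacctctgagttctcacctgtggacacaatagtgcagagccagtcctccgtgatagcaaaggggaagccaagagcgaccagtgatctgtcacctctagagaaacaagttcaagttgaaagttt
Nqo1: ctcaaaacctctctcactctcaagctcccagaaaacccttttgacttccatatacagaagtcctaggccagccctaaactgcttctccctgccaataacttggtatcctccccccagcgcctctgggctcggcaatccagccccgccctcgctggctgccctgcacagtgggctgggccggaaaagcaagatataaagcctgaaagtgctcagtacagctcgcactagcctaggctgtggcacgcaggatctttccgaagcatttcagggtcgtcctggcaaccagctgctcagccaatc
Nfe2l2: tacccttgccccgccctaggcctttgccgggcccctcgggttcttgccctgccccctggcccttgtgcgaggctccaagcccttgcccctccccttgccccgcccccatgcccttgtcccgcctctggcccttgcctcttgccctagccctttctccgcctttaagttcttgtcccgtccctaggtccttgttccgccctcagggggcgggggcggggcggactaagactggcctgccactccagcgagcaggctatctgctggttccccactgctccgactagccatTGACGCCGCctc
Gclm: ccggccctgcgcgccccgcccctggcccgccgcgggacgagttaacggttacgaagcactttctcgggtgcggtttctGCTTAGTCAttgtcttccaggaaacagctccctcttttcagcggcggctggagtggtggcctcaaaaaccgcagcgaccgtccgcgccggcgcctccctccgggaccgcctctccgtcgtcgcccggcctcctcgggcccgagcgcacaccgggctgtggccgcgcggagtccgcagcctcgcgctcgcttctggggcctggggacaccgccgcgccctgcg
A window without the letters says nothing about elements further away, and a match is no evidence of binding.

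Library totals ran from 9069354 to 48079431 counts. The heart AVF+NX libraries held 11889483 to 48079431 counts, the heart NX libraries 9605973 to 22679092 and the heart Sham libraries 9894716 to 11866042. The kidney groups overlapped in total, at 9503652 to 10416535 for AVF+NX, 9360065 to 18782085 for NX and 9069354 to 12637718 for Sham. The organ labels fitted their markers, since 8 cardiomyocyte markers summed to at least 61930 CPM (counts scaled to library size) in each heart library and to at most 27.4 CPM in each kidney library. In heart, an index of 63 small RNA genes (the mean of their standardised log2 CPM) also moved with the groups, at -0.78 to -0.17 in AVF+NX, 0.99, -0.92, -0.54 and 0.55 in NX libraries 1 to 4, and 0.68 to 0.72 in Sham. The same index over 90 genes in kidney was 0.36, -0.38, 0.81 and 0.44 in AVF+NX libraries 1 to 4, -0.36 to -0.003 in NX and -0.27 to 0.04 in Sham. CPM values are TMM-scaled within an organ. TPM values, used to compare levels between genes or organs, also divide by the gene length in the files. Calls rest on edgeR's quasi-likelihood test with adjustment over all genes tested in a comparison, and need an adjusted p below 0.05.

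The 9 genes spanned very different levels, and the order differed between the organs. In kidney the 2 subunits of glutamate-cysteine ligase, the enzyme of the first step of glutathione synthesis, stood highest per transcript length. Gclc, its catalytic subunit, averaged 1660 ± 285 TPM in AVF+NX kidneys, 1517 ± 360 TPM in NX kidneys and 1858 ± 544 TPM in Sham kidneys (SD, n = 4 each). Gclm, its modifier subunit, averaged 1245 ± 184 TPM in AVF+NX, 1268 ± 512 TPM in NX and 1436 ± 129 TPM in Sham kidneys. In heart, Gclc averaged 10.7 ± 0.83 TPM after AVF+NX, 9.51 ± 1.99 TPM after NX and 8.42 ± 1.24 TPM after Sham surgery. Heart Gclm lay between 24.6 and 28.3 TPM as group means. No heart library approached any kidney library for either gene.

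**Figure D1:**
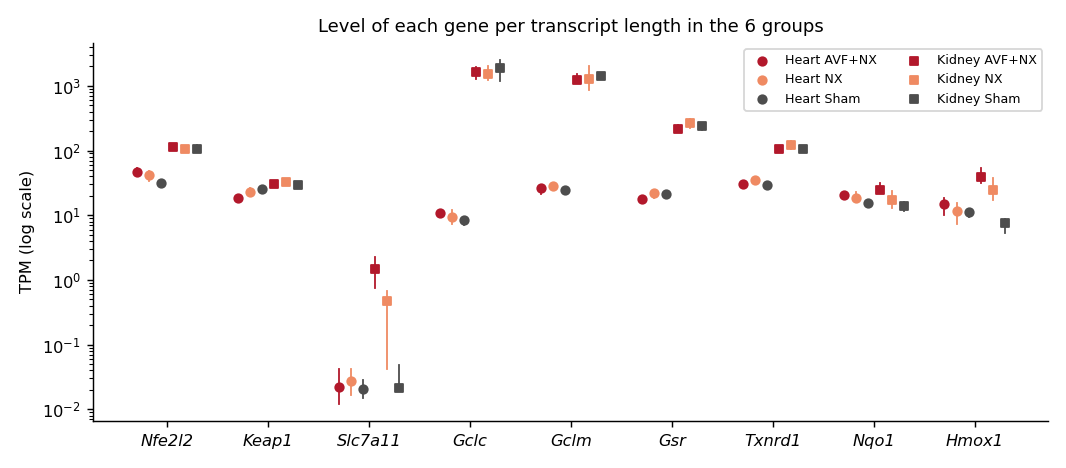
Group mean level (TPM, log axis) of each of the 9 genes, with lines from the lowest to the highest library (from the mean where the lowest library is 0). Circles are heart and squares kidney groups; Gclc and Gclm have group means of 1245 to 1858 TPM in kidney and 8.42 to 28.3 TPM in heart.

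The sham organs differed in 8 of the 9 genes, where 71.2% of the 15222 genes tested were called between the organs, so such a count is common here. In Sham hearts relative to Sham kidneys, Gclc was lower, at -6.92 on the log2 scale (SE 0.27, adjusted p = 1.85e-16), and so was Gclm, at -5.01 (SE 0.21, adjusted p = 7.17e-16). Gsr, glutathione reductase, differed by -2.64 (SE 0.14), Txnrd1, thioredoxin reductase, by -0.999 (SE 0.12) and Nfe2l2 by -0.91 (SE 0.12), all lower in heart. In the other direction, heart was higher for Hmox1 by 1.42 (SE 0.30), Nqo1 by 1.02 (SE 0.15) and Keap1 by 0.62 (SE 0.10). These are shares of the RNA of each organ in 1 fit of all 23 libraries, in which the median gene differed by -0.11. On the TPM scale Hmox1 was at 11.3 ± 1.67 TPM in Sham hearts and 7.66 ± 1.63 TPM in Sham kidneys, without overlap. Nqo1 was at 15.4 ± 0.44 TPM in Sham hearts and 13.7 ± 2.04 TPM in Sham kidneys, and those ranges overlap, so its order between the organs is not clear on that scale. The Keap1 order is turned round in TPM, at 25.1 ± 1.84 TPM in Sham hearts (n = 3) and 29.4 ± 1.83 TPM in Sham kidneys (n = 4), and the 2 ranges overlap. Slc7a11 was not called between the sham organs (log2 fold change 0.71, SE 1.18), with 1 to 2 counts per heart library and 0 to 3 per kidney library.

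Within an organ the order of the 6 groups had few clear steps. For Hmox1 the kidney AVF+NX group was highest (38.8 ± 10.5 TPM) and the kidney NX group next (24.3 ± 9.46 TPM). The 3 heart groups followed at 14.8 ± 3.53 TPM in AVF+NX, 11.7 ± 3.45 TPM in NX and 11.3 ± 1.67 TPM in Sham, and neighbours in this order overlapped. Sham kidneys stood lowest at 7.66 ± 1.63 TPM, with no library reaching the heart Sham range. For Nqo1 the kidney AVF+NX libraries (22.4 to 31.3 TPM) lay above all others except a kidney NX and a heart NX library that reached 23.6 and 22.7 TPM. Nfe2l2 ran from 113 ± 6.72 TPM in AVF+NX kidneys to 31.4 ± 0.95 TPM in Sham hearts, with no overlap between the organs. Keap1 was lowest in AVF+NX hearts, at 18.3 ± 1.29 TPM.

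In the kidney, levels of Hmox1 and Nqo1 after AVF+NX exceeded those after Sham surgery, and so did the counts of Slc7a11. Slc7a11 passed the count filter only through the groups with nephrectomy, so it is described by its counts and left out of the counts of calls. Of the other 8 genes 2 were called, both higher, a share of 25.0%, against 25.1% of the 14322 genes tested called in this comparison and 15.9% called higher. The AVF+NX and Sham libraries did not overlap for these 2 of 8, as in 27.6% of all genes tested, so both counts are near those of all genes. The glutathione and thioredoxin enzymes and the NRF2 and KEAP1 genes themselves were not called. The median log2 fold change of the 8 was -0.03, beside -0.0077 over all genes tested.

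Hmox1 (ENSRNOG00000014117, 19:14508616-14515456, plus strand, in the files' coordinates, whose build is not given in the sources used here) encodes haem oxygenase 1, the inducible enzyme that opens haem into biliverdin, iron and carbon monoxide. It was at 44.4, 27.9, 31.5 and 31.3 CPM in the AVF+NX kidneys and 18.2, 35.1, 16.3 and 16.0 CPM in the NX kidneys, against 7.45, 8.06, 7.43 and 4.94 CPM in the Sham kidneys. Every AVF+NX and NX library lay above every Sham library, and NX library 2 lay inside the AVF+NX range. Hmox1 rose by a log2 fold change of 2.28 in AVF+NX against Sham (SE 0.27, adjusted p = 0.000141). It also rose in NX against Sham, by 1.61 (SE 0.27, adjusted p = 0.0226).

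Slc7a11 (ENSRNOG00000010210, 2:139453774-139528162, minus strand) encodes xCT, the light chain of the cystine-glutamate exchanger that brings in cystine for glutathione. Its counts were 61, 36, 93 and 110 in the AVF+NX kidneys and 25, 33, 2 and 56 in the NX kidneys, against 1, 3, 1 and 0 in the Sham kidneys. In CPM these were 5.48, 3.72, 9.38 and 11.2 in AVF+NX and 2.58, 3.55, 0.23 and 2.77 in NX, against 0.11, 0.25, 0.09 and 0.00 in Sham. All 4 AVF+NX kidneys lay above all others, 3 NX kidneys lay above the Sham range, and NX library 3 lay within it. Scaled to library size, the summed counts gave a ratio of 64.7 for AVF+NX over Sham (95% counting interval 27.4 to 201.0, from 300 against 5 counts) and of 21.1 for NX over Sham (8.78 to 66.2, from 116 against 5 counts). These intervals cover counting error only, and no p-value is given because the filter kept the gene for its high groups.

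Nqo1 (ENSRNOG00000012772, 19:38422164-38437180, plus strand) encodes the NAD(P)H quinone reductase that is widely used as a readout of NRF2 activity. It was at 19.2, 20.5, 21.2 and 27.6 CPM in the AVF+NX kidneys and 15.1, 12.04, 14.3 and 18.1 CPM in the NX kidneys, against 10.2, 13.3, 11.8 and 15.3 CPM in the Sham kidneys. The AVF+NX libraries lay above all NX and Sham libraries, and those 2 groups overlapped. Nqo1 rose by 0.80 on the log2 scale in AVF+NX against Sham (SE 0.16, adjusted p = 0.0035). In NX against Sham its log2 fold change was 0.24 (SE 0.16, adjusted p = 0.479), which did not pass.

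**Figure D2:**
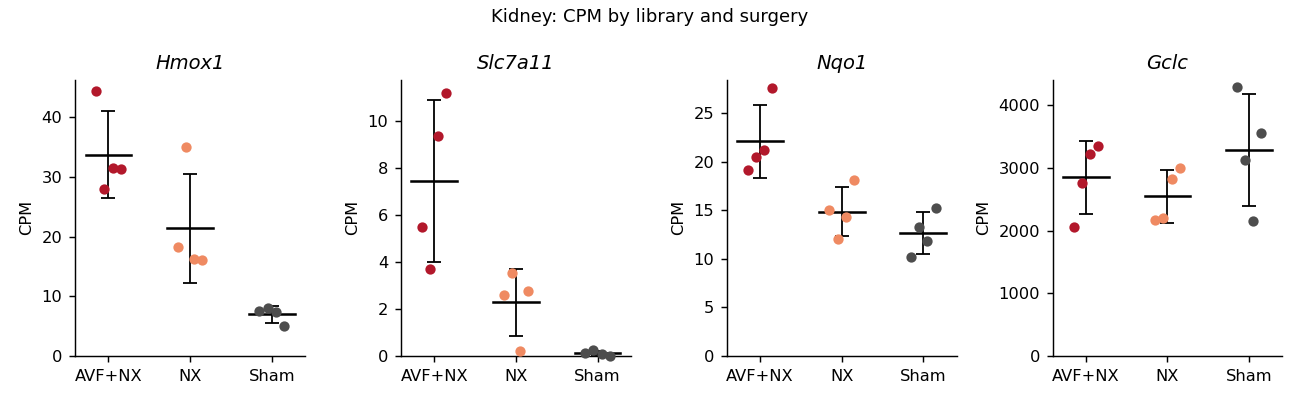
CPM of Hmox1, Slc7a11, Nqo1 and Gclc in each kidney library by surgery; lines and bars are the group mean and SD (n = 4 each). Hmox1, Slc7a11 and Nqo1 show no overlap between AVF+NX and Sham kidneys, while the Gclc groups overlap.

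The kidney genes of glutathione synthesis and reduction were not called. Gclc (ENSRNOG00000006302, 8:85059051-85097468, plus strand) was at 2061, 2756, 3230 and 3354 CPM in AVF+NX and 2175, 2206, 2826 and 2996 CPM in NX, against 4297, 3122, 2157 and 3565 CPM in Sham kidneys. The 3 groups overlapped, with the widest spread among the Sham kidneys, whose coefficient of variation was 27.2%. Its log2 fold change was -0.20 (SE 0.21, adjusted p = 0.52) in AVF+NX against Sham and -0.37 (SE 0.21, adjusted p = 0.407) in NX against Sham. Gclm (ENSRNOG00000013409, 2:225827504-225847874, plus strand) averaged 1040 ± 173 CPM in AVF+NX, 1029 ± 315 CPM in NX and 1243 ± 106 CPM in Sham kidneys, and its changes against Sham were -0.26 (SE 0.19) and -0.27 (SE 0.19) for AVF+NX and NX. Neither passed.

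Gsr (ENSRNOG00000014915, 16:62197617-62241361, minus strand) averaged 238 ± 27.0 CPM in AVF+NX, 296 ± 50.5 CPM in NX and 280 ± 26.1 CPM in Sham kidneys, a log2 fold change of -0.24 for AVF+NX against Sham (SE 0.12, adjusted p = 0.179). Its span overlaps an unnamed gene on the opposite strand, and since the strand setting of the counting is not given in the sources used here, its counts are uncertain in both organs. Txnrd1 (ENSRNOG00000009088, 7:26946125-26984400, minus strand) averaged 201 ± 20.2 CPM in AVF+NX, 231 ± 40.3 CPM in NX and 209 ± 9.94 CPM in Sham kidneys. The 3 groups overlapped for both genes in the kidney.

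The group means of the regulator pair differed little in the kidney. Nfe2l2 (ENSRNOG00000001548, 3:62497571-62524996, minus strand) averaged 146 ± 11.5 CPM in AVF+NX, 137 ± 5.92 CPM in NX and 143 ± 15.3 CPM in Sham kidneys. Keap1 (ENSRNOG00000020878, 8:22250518-22259779, minus strand) averaged 54.1 ± 2.85 CPM in AVF+NX, 56.5 ± 4.13 CPM in NX and 54.2 ± 3.33 CPM in Sham kidneys. The log2 fold changes against Sham were 0.03 (SE 0.09) in AVF+NX and -0.06 (SE 0.09) in NX for Nfe2l2. They were -0.00 (SE 0.08) in AVF+NX and 0.06 (SE 0.08) in NX for Keap1. None of the 4 passed.

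In NX kidneys against Sham, 1 of the 8 genes besides Slc7a11 was called, Hmox1, against 1.31% of the genes tested. The call depended on single libraries, being lost without NX library 1 or without Sham library 2, 3 or 4 and kept in the other 4 fits that each left out 1 library. The log2 fold change of Hmox1 stayed between 1.27 and 1.73 over these 8 fits. In the authors' deposited table for this comparison, the adjusted p was 5e-06 for Hmox1.

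Adding the fistula to the nephrectomy gave 0 called genes of 8, Slc7a11 again left out, in AVF+NX kidneys against NX kidneys by edgeR's quasi-likelihood test, against 6.07% of the genes tested, and 3 of the 8 had an unadjusted p below 0.05. Nqo1 came closest, 0.56 higher on the log2 scale (SE 0.16, adjusted p = 0.0555), then Hmox1 at 0.67 (SE 0.25, adjusted p = 0.132). In CPM, the AVF+NX and NX libraries did not overlap for Nqo1, 1 of the 8, as in 11.8% of all genes tested. The call depended on the test, the model terms and single libraries. DESeq2 and limma voom called Nqo1, and the authors' deposited table gives it an adjusted p of 0.0348. The edgeR test also called it with a replicate block, with total count as a covariate, and in 2 of the 8 fits that each left out 1 library. Gsr was at -0.32 (SE 0.12, adjusted p = 0.148). With the kidney small RNA index in the edgeR fit, the Nqo1 estimate was 0.49 (adjusted p = 0.286), and 25 of all genes were called, beside 870 without it.

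Cell type markers moved with these kidney results. Of 13 macrophage markers, 13 were called higher in AVF+NX against Sham (median log2 fold change 2.48), 3 in NX against Sham and 10 in AVF+NX against NX, and none was at 0 in any kidney library. Their summed level was 2832, 1268, 2269 and 2006 CPM in AVF+NX kidneys and 680, 794, 395 and 1226 CPM in NX kidneys, against 323 to 411 CPM in Sham kidneys. NX library 3, the one with Slc7a11 in the Sham range, also had a macrophage sum in the Sham range, while its Hmox1 was still at 16.3 CPM. The NX library with the highest Hmox1, library 2, had a sum of 794 CPM, below the 1226 CPM of library 4. All 12 lymphocyte markers were called higher in AVF+NX against Sham and summed to 326 to 539 CPM in AVF+NX, 53.9 to 173 CPM in NX and 30.5 to 42.3 CPM in Sham kidneys, with Ms4a1 at 0 in 2 NX and all 4 Sham libraries and Mzb1 at 0 in 1 Sham library. Of 7 fibroblast markers, 6 were called higher, at sums of 3045 to 6760 CPM in AVF+NX, 1005 to 3276 CPM in NX and 608 to 848 CPM in Sham, where Postn was at 0 in 1 library. Of 10 proximal tubule markers, 6 were called lower in AVF+NX against Sham, with sums of 12850 to 18570 CPM in AVF+NX, 14570 to 23160 CPM in NX and 20810 to 25300 CPM in Sham. Of 5 urothelium markers, 4 were called higher (median log2 fold change 3.68), at sums of 81.5, 10.4, 3.33 and 68.2 CPM in AVF+NX kidneys, 0.68 to 14.1 CPM in NX and 0.81 to 4.45 CPM in Sham kidneys, with Krt5 at 0 in all 4 Sham libraries and Upk3a at 0 in 2 NX and 2 Sham libraries. The urothelium markers and Ms4a1, low or at 0 in Sham kidneys, passed the count filter through kidneys with nephrectomy. No support is drawn from their calls. Both neutrophil markers tested, Csf3r and S100a9, were called higher, and 4 neutrophil markers summed to 7.06 to 39.2 CPM in AVF+NX, 2.94 to 21.6 CPM in NX and 2.71 to 4.93 CPM in Sham kidneys. Markers of other kidney cells were lower, with 4 of 7 distal nephron markers called lower at sums of 4268 to 6837 CPM in AVF+NX, 6988 to 8581 CPM in NX and 6684 to 7703 CPM in Sham. Of 5 podocyte markers 2 were called lower, at sums of 610 to 801 CPM in AVF+NX, 620 to 953 CPM in NX and 990 to 1045 CPM in Sham. Endothelial markers were mixed, with 1 of 5 called higher and 2 lower. Over all genes tested in kidney, 25.1% were called in AVF+NX against Sham, 1.31% in NX against Sham and 6.07% in AVF+NX against NX. The part of these cell types in the Hmox1, Slc7a11 and Nqo1 values was not tested, and in whole organs more cells of a type and more RNA per cell cannot be told apart.

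**Figure D3:**
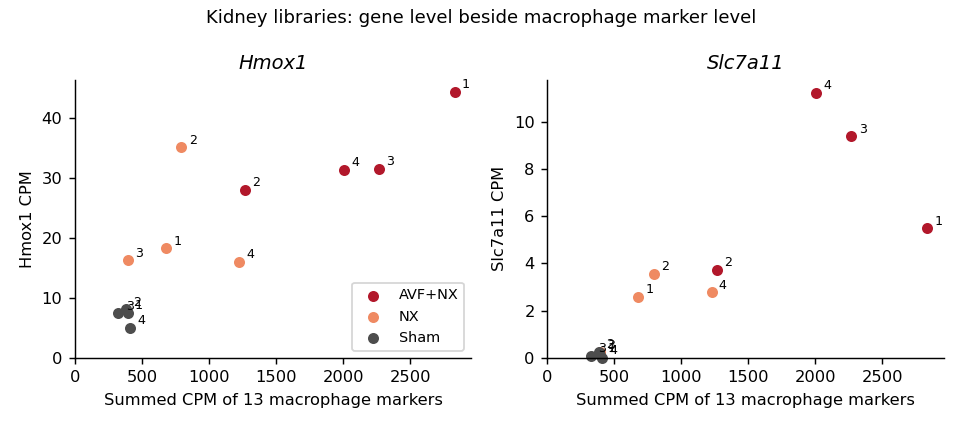
CPM of Hmox1 and Slc7a11 in each kidney library against the summed CPM of 13 macrophage markers in the same library; numbers are library numbers within a group. Sham kidneys lie at 323 to 411 CPM of macrophage markers with low levels of both genes, and AVF+NX kidneys at 1268 to 2832 CPM with higher ones.

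In the heart, 4 of 8 genes tested were called in AVF+NX against Sham, where 34.1% of the 12794 genes tested were called. Nfe2l2 and Nqo1 were higher, Keap1 and Gsr were lower, and the shifts were small. The AVF+NX and Sham libraries did not overlap for these 4 of 8, as in 47.4% of all genes tested. The median of the 8 was a log2 fold change of 0.15, beside 0.01 over all genes tested. Slc7a11 did not pass the count filter in heart, at 3, 11, 3 and 1 counts in AVF+NX and 1, 5, 3 and 1 counts in NX, against 2, 1 and 1 counts in Sham libraries. It was not tested there.

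Nfe2l2 was at 61.2, 66.0, 76.0 and 65.0 CPM in AVF+NX hearts and 50.6, 64.0, 65.4 and 51.8 CPM in NX hearts, against 46.0, 47.5 and 49.1 CPM in Sham hearts. Both surgery groups lay above Sham, with NX libraries 1 and 4 just above it and NX libraries 2 and 3 within the AVF+NX range. It rose by a log2 fold change of 0.50 in AVF+NX against Sham (SE 0.11, adjusted p = 0.00619). In NX against Sham it was at 0.29 (SE 0.11, adjusted p = 0.196), which did not pass.

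Keap1, the adaptor that targets NRF2 for degradation, went the other way. It was at 33.9, 32.8, 38.4 and 40.1 CPM in AVF+NX hearts and 54.1, 39.1, 41.2 and 45.4 CPM in NX hearts, against 50.9, 49.3 and 56.0 CPM in Sham hearts. AVF+NX hearts lay below all Sham hearts, and the NX libraries spread from the AVF+NX range into the Sham range. Keap1 fell by 0.52 on the log2 scale in AVF+NX against Sham (SE 0.12, adjusted p = 0.00597), and was at -0.22 (SE 0.12, adjusted p = 0.295) in NX against Sham.

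Nqo1 and Gsr moved less. Nqo1 was at 19.2, 19.7, 20.03 and 21.6 CPM in AVF+NX hearts and 17.3, 15.7, 20.9 and 17.9 CPM in NX hearts, against 15.6, 15.9 and 16.5 CPM in Sham hearts. It rose by 0.33 on the log2 scale in AVF+NX against Sham (SE 0.11, adjusted p = 0.0367), with no overlap between these 2 groups. Gsr was at 23.7, 19.3, 20.4 and 25.1 CPM in AVF+NX hearts and 26.9, 27.0, 27.9 and 23.7 CPM in NX hearts, against 28.5, 27.3 and 28.5 CPM in Sham hearts. It fell by 0.35 on the log2 scale in AVF+NX against Sham (SE 0.11, adjusted p = 0.0246), again without overlap. The Nqo1 call held in 1 of the 7 fits that each left out 1 library and the Gsr call in 2, while Nfe2l2 and Keap1 were called in all 7.

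**Figure D4:**
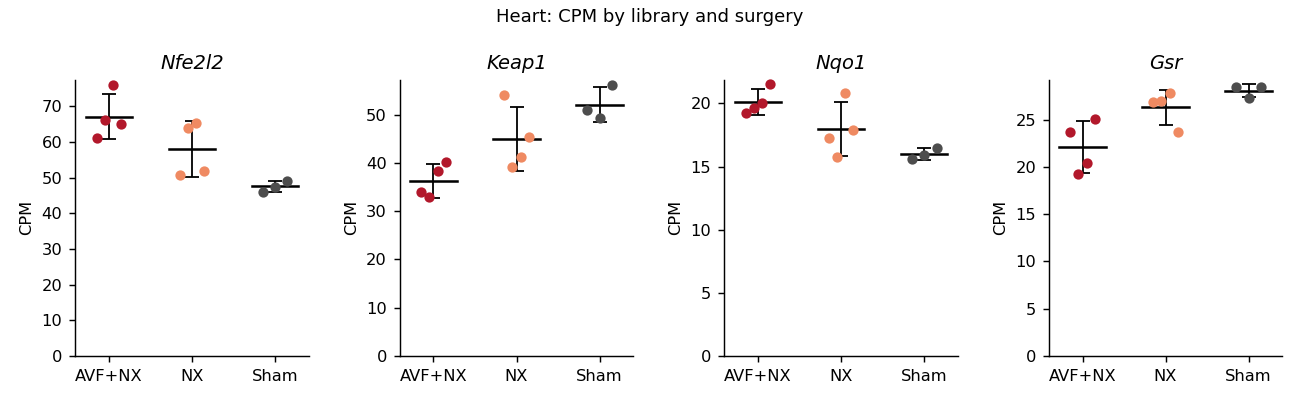
CPM of Nfe2l2, Keap1, Nqo1 and Gsr in each heart library by surgery; lines and bars are the group mean and SD (n = 4 for AVF+NX and NX, 3 for Sham). Nfe2l2 and Nqo1 lie higher and Keap1 and Gsr lower in all AVF+NX hearts than in all Sham hearts, with NX hearts between or across them.

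The other 4 genes tested in heart were not called. Hmox1 was at 17.4, 15.4, 9.53 and 15.9 CPM in AVF+NX hearts and 15.5, 6.65, 9.83 and 13.6 CPM in NX hearts, against 9.62, 12.3 and 13.0 CPM in Sham hearts. The groups overlapped, and the log2 fold change was 0.32 in AVF+NX against Sham (SE 0.27, adjusted p = 0.383) and -0.06 (SE 0.28, adjusted p = 0.909) in NX against Sham. Gclc averaged 20.3 ± 1.62 CPM in AVF+NX, 17.6 ± 2.79 CPM in NX and 16.9 ± 2.61 CPM in Sham hearts, and its change in AVF+NX against Sham was 0.27 (SE 0.14, adjusted p = 0.16). Gclm averaged 24.3 ± 1.87 CPM in AVF+NX, 25.6 ± 1.37 CPM in NX and 24.0 ± 2.83 CPM in Sham hearts. Txnrd1 averaged 66.4 ± 4.94 CPM in AVF+NX, 72.3 ± 2.78 CPM in NX and 65.2 ± 6.59 CPM in Sham hearts. Gclm and Txnrd1 were both at 0.02 in AVF+NX against Sham, with SEs of 0.11 and 0.09.

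The heart calls stood beside the depth and small RNA differences described above. With the log2 total count of a library as a covariate, 0 of the 8 genes were called by edgeR in AVF+NX against Sham, with 3 at an unadjusted p below 0.05, and the estimates were 0.31 for Nfe2l2 and -0.31 for Keap1. With a small RNA index term instead, 1 was called, Hmox1 at 1.06 (adjusted p = 0.0464), and Nfe2l2 was at 0.22 and Keap1 at -0.33. In these libraries depth, the small RNA index and surgery cannot be told apart. Macrophage markers summed to 352 to 439 CPM in AVF+NX hearts, 238 to 393 CPM in NX hearts and 256 to 268 CPM in Sham hearts, with 4 of 13 called higher and 1 lower in AVF+NX against Sham and none at 0. Fibroblast markers summed to 2483 to 3834 CPM in AVF+NX, 1749 to 2599 CPM in NX and 1637 to 2154 CPM in Sham hearts, with 5 of 7 called higher. Endothelial markers summed to 630 to 750 CPM in AVF+NX, 553 to 678 CPM in NX and 474 to 546 CPM in Sham hearts, with 3 of 5 called higher and none at 0. Atrial markers summed to 206 to 946 CPM in AVF+NX, 75.3 to 217 CPM in NX and 69.4 to 149 CPM in Sham hearts, with 1 of 3 tested called higher, Nppa, and Sln at 0 in 2 NX libraries. Of the lymphocyte markers 2 of 6 tested were called higher. Over all genes tested in heart, 34.1% were called in this comparison, so the macrophage, atrial and lymphocyte shares are near that of all genes. The part of these cells in the heart values was not tested.

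NX hearts had 0 of 8 genes called against Sham by edgeR's quasi-likelihood test, in a comparison where 0.0% of all genes were called, and 1 of the 8 (Nfe2l2) had an unadjusted p below 0.05. DESeq2 called 0 and limma voom called 1, Nfe2l2. In AVF+NX hearts against NX hearts 0 of 8 were called by edgeR, where 0.336% of all genes were, with 2 at an unadjusted p below 0.05. Those were Keap1 at -0.31 (SE 0.11, adjusted p = 0.145) and Gsr at -0.26 (SE 0.10, adjusted p = 0.165), and DESeq2 and limma voom also called 0.

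**Figure D5:**
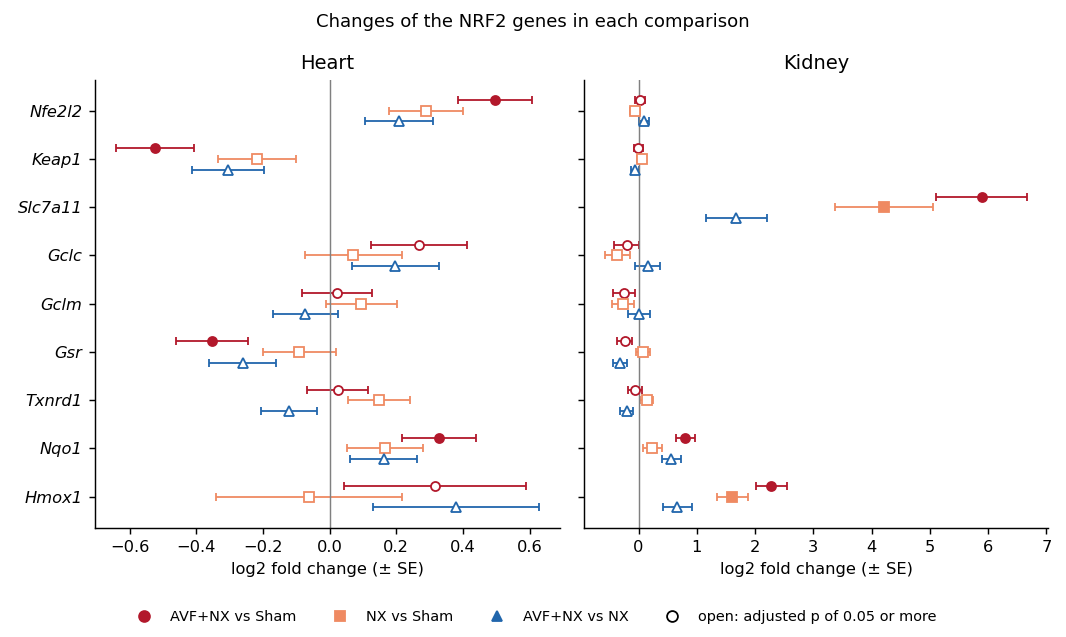
Log2 fold changes with SE of each gene in the 3 comparisons within heart (left panel) and kidney (right panel); the 2 panels have different scales. Filled symbols passed an adjusted p of 0.05, and Slc7a11 has no heart value because it did not pass the count filter there. In kidney Slc7a11 passed the filter only through groups with nephrectomy, so its filled symbols are not read as calls.

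The AVF+NX effect itself was tested between the organs as the heart change minus the kidney change, in 1 fit of all libraries. It differed for 3 of the 8 genes besides Slc7a11, against 27.9% of the genes tested. For Hmox1 the difference was -1.87 on the log2 scale (SE 0.39, adjusted p = 0.00177), the heart change being smaller than the kidney change. Slc7a11 passed the filter of this fit only through kidneys with nephrectomy and is not read here. Nfe2l2 differed by 0.56 (SE 0.16, adjusted p = 0.0118), with the rise in heart alone passing its own test, and Keap1 by -0.43 (SE 0.13, adjusted p = 0.0181). Nqo1 did not pass (-0.38, SE 0.20, adjusted p = 0.159), nor did Gsr (-0.02, SE 0.17), Gclc, Gclm or Txnrd1. The 3 calls were lost once the covariates of the heart fits were added with 1 slope per organ, an alternative chosen after seeing the data. With log2 total count the differences were -1.31 for Hmox1 (adjusted p = 0.1), 0.30 for Nfe2l2 (adjusted p = 0.295) and -0.26 for Keap1 (adjusted p = 0.31), and with the small RNA index -1.13 (adjusted p = 0.156), 0.20 (adjusted p = 0.513) and -0.25 (adjusted p = 0.414).

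The NX effect differed between the organs for 0 of the 8 genes besides Slc7a11 by edgeR, against 0.158% of the genes tested. Hmox1 and Nfe2l2 had an unadjusted p below 0.05. Hmox1 came closest at -1.62 (SE 0.39, adjusted p = 0.0831), and DESeq2 called it. The effect of AVF+NX against NX differed for 0 of these 8, against 1.12% of the genes tested, with 0 at an unadjusted p below 0.05, and DESeq2 also called 0.

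The wider pathway in AVF+NX kidneys held calls in both directions, at shares near the 25.1% of all genes. Over 7 lists, 21 of 94 genes tested were called against Sham, 9 higher and 12 lower. Of 24 other glutathione genes tested, 4 rose and 3 fell, 29.2% of the list, with a median log2 fold change of -0.23. Those that rose included Mgst2, a microsomal glutathione transferase, at 2.13 ± 1.14 CPM in AVF+NX and 0.23 ± 0.14 CPM in Sham (log2 fold change 3.17). Mgst2 passed the count filter only through kidneys with nephrectomy, so no p-value is given for it and no support is drawn from its call. Glrx, glutaredoxin, was at 21.2 ± 9.36 CPM in AVF+NX and 5.31 ± 0.78 CPM in Sham (log2 fold change 1.99, adjusted p = 0.000509). Gpx2, a glutathione peroxidase, rose by 1.45 (adjusted p = 0.0106). Those that fell were Ggt1, which breaks down extracellular glutathione at the tubule brush border, Gpx3, the plasma peroxidase made in tubules, and Gstk1. Among genes that supply NADPH, Idh1 fell by 0.55. Of 11 haem and iron genes, 27.3% were called. Cp (caeruloplasmin) rose by 1.498 and Hp (haptoglobin) by 1.59, and Blvra, the biliverdin reductase that follows haem oxygenase, fell by 0.67 (adjusted p = 0.00693). Hp, at 1.67 ± 0.19 CPM in AVF+NX and 0.55 ± 0.21 CPM in Sham, also passed the filter only through kidneys with nephrectomy. No support is drawn from its call, and the counts of calls here include Mgst2 and Hp.

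Of 17 drug conjugation and export genes, Cbr3 rose in AVF+NX kidneys against Sham and Akr7a2, Ces1d, Nqo2 and Osgin1 fell, 29.4% of the list, with a median of -0.25. Of 16 thioredoxin and peroxiredoxin genes, Prdx4 rose by 0.58 and Sesn2 and Msrb1 fell by 0.62 and 0.53, 18.8% of the list. Of 4 genes that remove superoxide and peroxide, Sod3 fell by 0.61. In the 8 fits that each left out 1 library, the calls of Idh1 and Msrb1 held in 2, of Sod3 in 3 and of Cbr3 in 5. Of 15 regulators and partners of NRF2, which include its small MAF partners and the CUL3 ligase, 0 were called by edgeR in the kidney in this comparison, with 1 at an unadjusted p below 0.05. In NX kidneys against Sham the only call among these 7 lists was Ggt1 (-0.73, adjusted p = 0.0406), which held in 2 of 8 such fits. Against NX, the AVF+NX kidneys had Glrx (1.30) higher and Abcc4 (-0.58) and Nqo2 (-0.55) lower, and of these calls Abcc4 held in all 8 such fits, Glrx in 5 and Nqo2 in 3.

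In AVF+NX hearts against Sham, 34 of 87 genes tested in the 7 lists were called, 8 higher and 26 lower. Over all 12794 genes tested 34.1% were called, 1975 higher and 2382 lower. Once library total entered the fit on the log2 scale, 0 of the 87 were called by edgeR, with 2 called among all genes, and once the small RNA index entered it, 2 of the 87, with 179 called among all genes. The values below are from the fit without covariates. Of the 15 regulators and partners, 46.7% were called. Cul3 rose and Nfe2l1, Sqstm1, Rbx1, Mafg, Mafk and Syvn1 fell, and the median of the list was -0.25. Nfe2l1, a relative of NRF2 that drives proteasome genes, was at 270 ± 31.8 CPM in AVF+NX and 418 ± 25.3 CPM in Sham hearts (log2 fold change -0.64, adjusted p = 0.00547). Sqstm1, which encodes p62, a KEAP1-binding autophagy receptor, was at 188 ± 7.14 CPM in AVF+NX and 281 ± 46.4 CPM in Sham hearts (-0.58, adjusted p = 0.017). The Sqstm1 call held in 6 of 7 fits without 1 library, and the Rbx1 call in 4 of 7. Of 19 glutathione genes, 47.4% were called. Mgst2 rose and 8 fell, among them Ggct (-1.19), Oplah (-0.88) and Gsta4 (-0.81). Among NADPH genes, Me1 rose, and Pgls (-1.58), Taldo1 (-0.89) and H6pd (-0.55) fell.

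The other lists in the heart also held calls in both directions, apart from a single call among 4 genes that remove superoxide and peroxide. The shares called were 31.2% of thioredoxin, 25.0% of drug conjugation, 30.0% of haem and iron and 25.0% of superoxide genes. Over all genes tested the share was 34.1%. Of 16 thioredoxin genes, Prdx6 rose by 0.51 and 4 fell, among them Prdx5 (-0.60) and Msrb1 (-0.81). Of 16 drug conjugation genes, Aox1 and Ces1d rose, and Akr7a2 and Osgin1 fell. The Aox1 and Ces1d calls each held in 6 of 7 fits that left out 1 library. Of 10 haem and iron genes, Cp rose by 0.67, and Blvrb (-1.08) and Blvra fell, the Blvra call being lost in all 7 fits that left out 1 library. Sod1, the cytosolic superoxide dismutase, fell by 0.62. In AVF+NX hearts against NX the only call was Gsta4 (-0.48, adjusted p = 0.0378), held in 2 of 8 fits without 1 library, and NX hearts against Sham had 0 calls in these lists by edgeR, as among all genes. At an unadjusted p below 0.05 these hearts had 6 of 15 regulators, 4 of 19 glutathione, 4 of 16 thioredoxin, 4 of 7 NADPH, 3 of 16 drug conjugation, 2 of 10 haem and iron and 1 of 4 superoxide genes, beside 2662 of all 12794.

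Among 10861 genes with at least 1 CPM in both organs, the nearest pattern over the 23 libraries was found as the smallest root mean square difference of log2 CPM centred within organ. For Hmox1 it was Runx1, a transcription factor of blood cells and injured tissue, with a difference of 0.34 beside 0.77 for the spread of Hmox1 itself. Runx1 rose by 2.31 in AVF+NX and 1.21 in NX kidneys against Sham and was at 0.04 in AVF+NX hearts. Each nearest gene was picked by its likeness in these same libraries, so its changes are no separate support. For Slc7a11 it was Rab7b (0.63 beside 1.54), for Nqo1 Srgn, the proteoglycan of immune cell granules (0.16 beside 0.31), for Nfe2l2 Gpbp1 (0.08 beside 0.20) and for Keap1 the proteasome subunit Psma7 (0.09 beside 0.16). The nearest to Gclc was Nipal2, to Gclm Kctd9, to Txnrd1 Usp4 and to Gsr Mapk8ip1.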

How the data were processed

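RNA was poly(A)-selected and libraries were strand-specific and sequenced from paired ends, per the labels' protocols. The authors deposited whole-number counts per gene, with gene coordinates and length in the layout of featureCounts, per the file headers. The submitters' processing notes list STAR 2.5.2b, Trimmomatic 0.36, Subread 1.5.2 and featureCounts. Build, annotation release and strand setting were not stated in the sources used here. The authors also deposited 6 comparison tables with log2 fold changes, p-values and adjusted p-values, made with a tool that they do not name, and a normalised signal per library that equals the count divided by 1 factor per library. Gene symbols came from those tables (15123 of 32552 identifiers). Srxn1 is in the RefSeq table but was not paired with an identifier.

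Libraries of an organ went into 1 joint model in edgeR 4.0.16 (R 4.3.3; filterByExpr, TMM, robust quasi-likelihood F test), and organ contrasts in 1 fit of 23 libraries (15222 genes). The Benjamini-Hochberg adjustment ran over all genes tested. SEs come from the log2 fold change and its F value. Each p-value sets a difference between group means against the spread of libraries within groups, estimated over all groups in the fit. The fit was tested on simulated counts. Replicates differed by more than sampling noise. Alternatives were RLE scaling, no count filter, DESeq2 1.42.0, limma 3.58.1 voom with quality weights, a replicate block, total count or small RNA index as covariate, only the groups compared, and leaving out each library; covariates per organ in the joint fit were added after seeing the data. From each pathway list the text names called genes, with values for up to 3 of smallest p, and 1 nearest gene per member; other called genes are named without values or by their list. Some list genes are not reported here. The members and lists were chosen with earlier results of these data known.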

Additional observations from a re-analysis of the deposited data

Results flagged for a closer look

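Of 45 sets of 4 libraries of a gene in a group, 2 held 1 library far from the others, where chance alone flags about 1 in 20 such sets. Hmox1 was at 35.06 CPM in NX kidney library 2, beside 16.0 to 18.2 CPM in the other NX kidneys. Txnrd1 was at 68.08 CPM in NX heart library 3, beside 73.4 to 73.8 CPM in the other NX hearts.

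The change in AVF+NX against Sham differed between the organs, tested as the heart change minus the kidney change on the log2 scale in 1 edgeR fit. It was -1.871 for Hmox1 (log2 fold change 0.32 in heart and 2.28 in kidney), -5.675 for Slc7a11 (at most 11 counts in any heart library, and past the count filter only through kidneys with nephrectomy, so no support is drawn from it), 0.557 for Nfe2l2 (0.50 in heart and 0.03 in kidney) and -0.4308 for Keap1 (-0.52 in heart and -0.00 in kidney). The Hmox1 and Nfe2l2 differences were called in all 15 fits that left out 1 library, and the Keap1 difference in 14. None of these 3 was called with log2 total count or the small RNA index as a covariate in each organ.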

How the results depend on the processing

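Counts of called genes here include Slc7a11, which passed the count filter only through groups with nephrectomy. In AVF+NX kidneys against Sham the same 3 genes (Hmox1, Nqo1, Slc7a11) were called under every alternative run, and 8 genes were called between the sham organs under each. In NX kidneys against Sham, 2 were called, but 1 (Hmox1) with limma voom or with only the 2 groups compared, and 0 to 2 when 1 library was left out. In AVF+NX against NX kidneys, 0 were called, but 2 (Nqo1 and Slc7a11) with DESeq2, 1 (Nqo1) with limma voom, the replicate block or the total count covariate, and 0 to 1 without 1 library (Nqo1 without AVF+NX 3 or NX 4, Hmox1 without NX 2). In AVF+NX hearts against Sham, 4 were called, but 0 with the total count covariate, 1 with the small RNA index, 3 without a count filter (Gsr lost) or with the replicate block (Nqo1 lost), and 2 to 4 without 1 library, Keap1 and Nfe2l2 being called each time. In NX hearts against Sham, 0 were called, but 1 with limma voom. The NX effect differed between the organs for 0 genes, but for 1 (Hmox1) with DESeq2, and for 0 to 1 without 1 library (Hmox1 without heart NX 1 or 4). The cause was not tested. For AVF+NX against Sham the organ difference was called for 4 of the 9 genes, for 3 to 5 without 1 library, and, in fits chosen after seeing the data, for 1 (Slc7a11) with a total count term per organ and 0 with a small RNA term per organ, where 2 had an unadjusted p below 0.05 by edgeR. DESeq2 called 4.

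Nothing in the labels ties the replicate numbers to a rat or batch. Deviations of same-numbered libraries correlated at -0.12 to 0.12 in heart (median -0.0084, beside 0.0078 for other pairs) and -0.07 to 0.38 in kidney (median 0.17, beside -0.01 for other pairs, which reached 0.18). As not every same-numbered pair was over 0.1, they were not treated as pairs, and 2 of 11 heart and 6 of 12 kidney libraries correlated best with their own number. The replicate block moved all called genes in AVF+NX against NX kidneys to 1647, beside 870 without it. Directions turned round only for genes not called in either setting. In NX against Sham hearts these were Hmox1 (0.0545 with total count, 0.322 with small RNA index, -0.247 to 0.141 without 1 library) and Gclc (-0.05875 with small RNA index, -0.0521 to 0.182 without 1 library). In AVF+NX against Sham hearts they were Gclm (-0.132 with total count, -0.01949 with small RNA index, -0.0415 to 0.128 without 1 library) and Txnrd1 (-0.0319 to 0.124). In NX against Sham kidneys they were Gsr (-0.0405 to 0.152) and Nfe2l2 (-0.0998 to 0.0148). For AVF+NX against Sham kidneys they were Txnrd1 (0.0132 with small RNA index), Keap1 (0.0005807 with only the 2 groups, -0.0329 to 0.035 without 1 library) and Nfe2l2 (-0.0161 to 0.107), and against NX kidneys Gclm (-0.126 to 0.228). The organ difference of AVF+NX against NX turned round for Nfe2l2 (-0.03469 with total count, -0.006562 with small RNA index in each organ) and Hmox1 (0.1908 and 0.174). Depth limits Slc7a11, which had at most 11 counts in a heart library and 3 in a Sham kidney library. A fit without NX hearts 1 and 4 was tried after seeing the data and is not reported, because the libraries were picked by their measured expression.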
